A study of Mus musculus with 6 samples.

Results

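The genes described here are 41 interferon-stimulated genes and interferon receptors of the mouse, outside the oligoadenylate synthetase and Mx families, measured in the side population of the anterior pituitary. They were chosen by name: every probe whose gene name in the array files equalled 1 of the 41 symbols was taken. This gave 60 of the 39429 probes and 41 of the 30119 genes or unnamed transcripts on the array. Of the 41 genes, 24 had 1 probe, 15 had 2 and 2 had 3. The criterion for testing, signal well above background on 2 or more arrays, was met by all 41, and 37 were above background on all 6. Dhx58, Ifi44, Xaf1 and Samd9l were above background on 5.

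The side population is a fraction of cells that pumps out Hoechst dye, and cells with the highest level of the surface antigen Sca1 were left out of the sort, a gate the submitters use to enrich pituitary stem cells. All mice were female, carried an inducible diphtheria toxin receptor (iDTR) allele and were given diphtheria toxin for 3 or 10 days, in 2 daily doses of 4 ng for each g of body weight. Control mice (-/iDTR) lacked a Cre driver, whereas in GHCre/iDTR mice Cre is driven by growth hormone regulatory sequence, so that toxin targets growth hormone cells and whatever other cells have used that driver. Toxin exposure is therefore shared by both genotypes. There were 2 control and 2 GHCre arrays after 3 days, and 1 control and 1 GHCre array after 10 days. Ages and the number of mice behind each sort are not given in the sources used here, so the p-values measure only the spread between these samples. For some samples the free-text descriptions disagree with the titles, and the titles, which match the genotype and treatment fields, were used.

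Type I interferons, such as interferon beta, bind the receptor chains Ifnar1 and Ifnar2, and interferon gamma binds Ifngr1 and Ifngr2. Type I signalling assembles a complex, with Stat2 and Irf9 among its subunits, that binds the interferon-stimulated response element (ISRE), while interferon gamma acts mainly through the gamma-activated site (GAS). The target genes encode sensors of viral RNA and DNA, transcription factors that amplify the response, proteins that block viral replication, and GTPases that attack vacuoles holding microbes. Many targets answer to both kinds of interferon, so the division used below, into 20 type I targets, 9 gamma targets, 8 targets of either and 4 receptors, is one of emphasis.

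Levels are log2 signal relative to the 75th percentile of the same array, whose signal ran from 186.15 to 298.51, with 53.8% to 65.7% of probes above background. The number of arrays limits the precision. Differences are log2 values, GHCre minus control, with the standard error of a limma fit over all genes, and where a gene had several probes the one brightest on average stands for it. Of 20923 genes tested, none passed an adjusted p of 0.05 after 3 days (0%), and the lowest adjusted p was 0.653. At an unadjusted p under 0.05, 3.95% of all genes were higher and 2.63% were lower in GHCre after 3 days. The growth hormone transcript Gh, which marks the targeted cells, was at 5.69 and 3.65 on control arrays and 5.46 and 2.20 with GHCre at 3 days, and at 7.86 and 2.21 after 10 days. The Gh levels of the genotypes thus overlapped after 3 days, and the single arrays of 10 days stood far apart. There the control was the highest of the arrays, while GHCre (2.21) was level with GHCre replicate 2 of 3 days (2.20). Of 8 hormone cell markers, Gh included, 7 were lower in GHCre after 10 days, Cga (-7.23) and Pomc (-3.86) among them. The other 1, Prl, was higher (0.32). What sets these 2 arrays apart was not tested. Because these are bulk samples, fewer cells of a type and less RNA per cell cannot be told apart.

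To show what ISRE-like and GAS-like letters look like in these genes, the 250 bases before the transcription start are printed for the type I targets Ifit1 and Ifit2 and the gamma targets Irf8 and Irf1. These had the lowest unadjusted p after 3 days among the targets of their class that hold a searched motif. Sequences are 5′ to 3′ along the gene, from RefSeq on GRCm38.p6, with matches in capitals.
Ifit1 (chr19:34640639-34640888, plus strand): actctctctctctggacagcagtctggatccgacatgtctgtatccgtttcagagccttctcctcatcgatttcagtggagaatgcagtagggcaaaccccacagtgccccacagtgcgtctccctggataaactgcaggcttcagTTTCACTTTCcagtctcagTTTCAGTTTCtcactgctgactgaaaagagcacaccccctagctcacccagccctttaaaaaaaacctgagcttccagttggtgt
Ifit2 (chr19:34550444-34550693, plus strand): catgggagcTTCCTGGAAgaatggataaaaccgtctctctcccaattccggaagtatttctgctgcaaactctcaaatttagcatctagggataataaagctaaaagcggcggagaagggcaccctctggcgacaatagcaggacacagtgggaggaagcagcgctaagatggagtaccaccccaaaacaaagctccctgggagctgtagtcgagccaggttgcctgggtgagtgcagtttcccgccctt
Irf8 (chr8:120736108-120736357, plus strand): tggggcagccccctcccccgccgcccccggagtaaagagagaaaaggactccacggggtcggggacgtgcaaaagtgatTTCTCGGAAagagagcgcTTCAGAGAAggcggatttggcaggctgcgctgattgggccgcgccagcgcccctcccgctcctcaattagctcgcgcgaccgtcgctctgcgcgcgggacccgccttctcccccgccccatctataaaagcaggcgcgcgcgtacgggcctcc
Irf1 (chr11:53769764-53770013, plus strand): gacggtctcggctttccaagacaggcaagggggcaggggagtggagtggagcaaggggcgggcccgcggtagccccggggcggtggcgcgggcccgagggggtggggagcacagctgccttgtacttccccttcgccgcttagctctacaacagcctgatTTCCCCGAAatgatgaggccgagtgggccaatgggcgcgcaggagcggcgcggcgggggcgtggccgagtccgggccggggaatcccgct
In Ifit1 the 2 capital runs are ISRE-like, starting 104 and 85 bases before the start site. In Ifit2 the run is GAS-like and lies 241 bases before the start. Both runs of Irf8, 171 and 153 bases before the start, and the run of Irf1, 90 bases before it, are GAS-like.

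An ISRE-like match was GAAANNGAAA on either strand (N is any base), and a GAS-like match was TTCNNNGAA, which reads alike on both strands. RefSeq windows of 250 bases before to 50 after a start site were found for 34 of the 41 genes. The 7 others are Dhx58, Parp14, Parp9, Zbp1, Iigp1, Usp18 and Rtp4. Among the 34, 15 (44.1%) held an ISRE-like match in a window, against 3.99% of 27025 genes, and 12 (35.3%) a GAS-like match, against 9.55%. By class, 9 of 17 type I targets (52.9%) and 5 of 8 gamma targets (62.5%) held an ISRE-like match. GAS-like matches were held by 4 of 17 (23.5%) and 4 of 8 (50%). Of the 4 receptors, 0 held an ISRE-like and 2 a GAS-like match. A gene with several windows was counted if any held the match, and in 2 of the 34 genes the ISRE-like and GAS-like letters overlapped. These are matches of letters, not binding sites.

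The 40 bases around the first ISRE-like match of 2 further targets in each class set the letters side by side. Rsad2 and Ifit3 are type I targets and Gbp5 and Gbp2 gamma targets, each next in order of p among those with the match.
Rsad2 (chr12:26456548-26456587, minus strand): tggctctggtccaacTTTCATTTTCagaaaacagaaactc
Ifit3 (chr19:34583358-34583397, plus strand): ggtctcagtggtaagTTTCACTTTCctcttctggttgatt
Gbp5 (chr3:142496754-142496793, plus strand): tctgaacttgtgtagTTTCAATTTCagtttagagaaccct
Gbp2 (chr3:142620589-142620628, plus strand): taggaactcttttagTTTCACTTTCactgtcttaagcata
The capitals mark the ISRE-like match, read here on the strand opposite to the search letters. It starts 120 bases before the start site in Rsad2, 156 in Ifit3, 165 in Gbp5 and 59 in Gbp2. Ifit3 and Gbp2 hold the same 10 letters. Gbp5, whose stretch also holds the match, had a difference of the opposite sign to the other 3 (below zero, against above zero), as given with the GTPases.

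After 3 days of toxin, most of the 41 genes were higher in the GHCre side population. The median difference was 0.93, with 37 genes above the control mean and 4 below, whereas the median over all genes tested was -0.037 and 48.0% of all genes were above 0. Every GHCre array was above every control array for 23 of the 41 genes, against 16.7% of all genes, and every GHCre array was below for 2, against 21.3%. Of the members, 7 had an unadjusted p under 0.05, all higher in GHCre, where 3.95% of all genes were higher. They were Ifit1, Usp18, Ifit2, Irf8, Ifi44, Rsad2 and Parp14. Their adjusted p in limma ran from 0.692 to 0.758, so none passed over all genes. Without replicate 1 of the GHCre group 0 members had an unadjusted p under 0.05, and without replicate 2 of the controls 3 did, while the median was 0.68 to 1.18 when each array was left out in turn. Slides 1 and 3 carry both genotypes of 3 days, and within them the medians were 0.93 (36 of 41 above 0) and 0.89 (33 of 41 above 0), where the medians of all genes were -0.061 and -0.04.

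**Figure D1:**
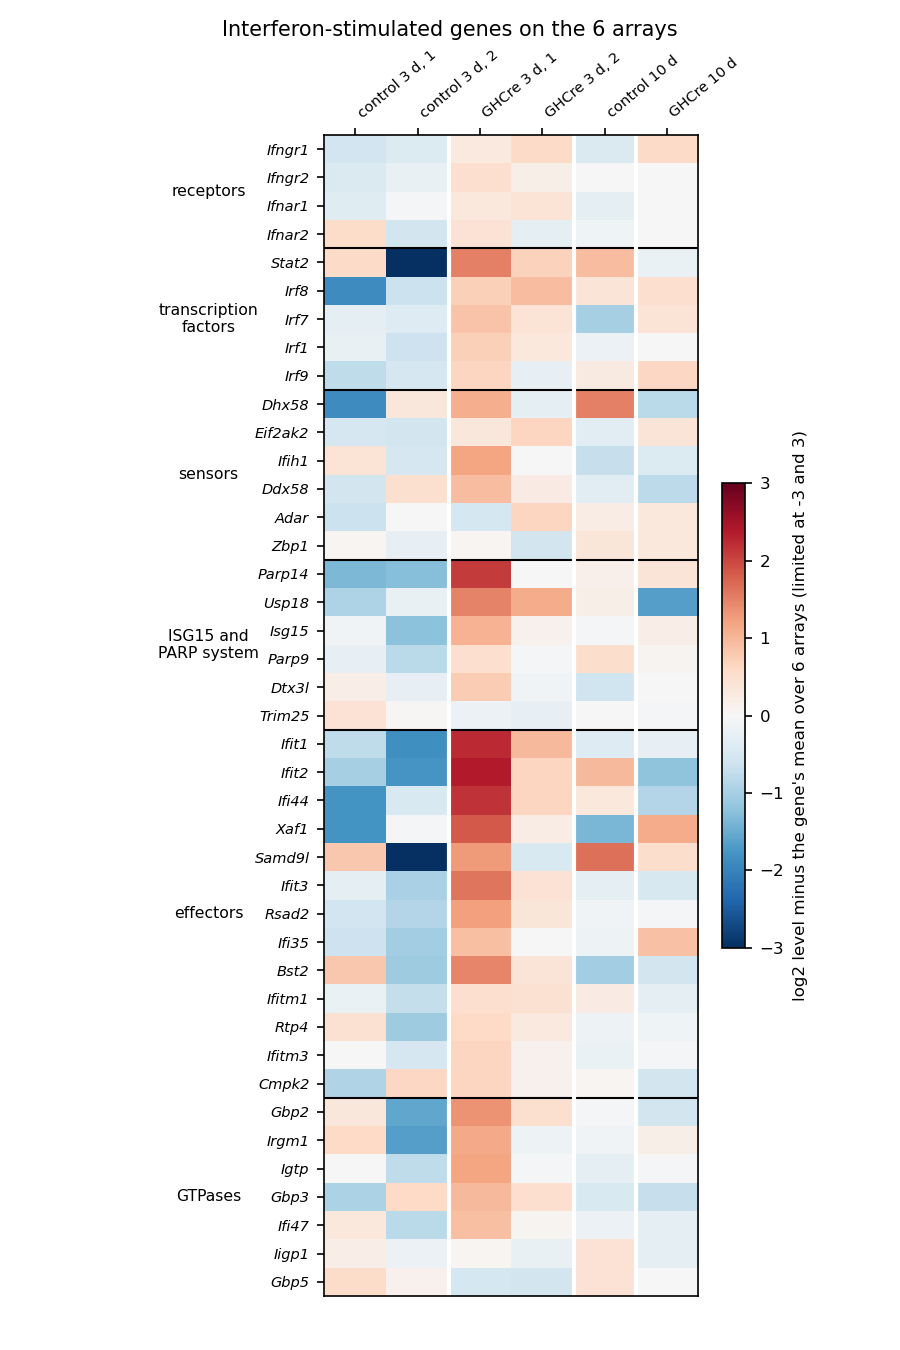
Each row is 1 of the 41 genes, ordered by role and then by 3 day difference, and each column 1 of the 6 arrays. Colour is the log2 level minus the gene's mean over the arrays. The median over the 41 genes was 0.91 and 0.22 on the GHCre arrays of 3 days, -0.29 and -0.54 on their controls, and -0.11 (control) and -0.05 (GHCre) after 10 days.

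**Figure D2:**
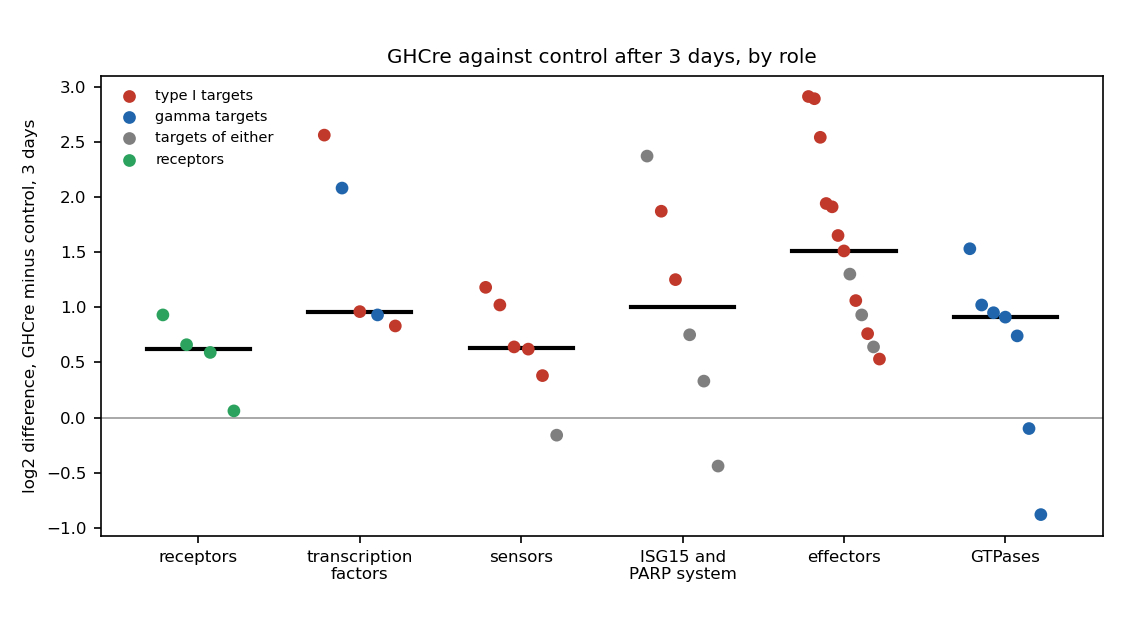
Points are the 3 day log2 differences (GHCre minus control) of the 41 genes by role, coloured by class, and bars are medians. All 13 effectors and all 5 transcription factors are above 0, and the 4 genes below 0 are Gbp5, Trim25, Zbp1 and Iigp1. The sign depends on the probe for some genes. Trim25, Zbp1 and Iigp1 were above 0 on their other probe, and Adar, Parp9 and Xaf1 were below 0 on theirs.

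The 4 receptor genes had a median difference of 0.63 after 3 days, with 4 of 4 above 0 and 0 at an unadjusted p under 0.05. Ifngr1, the ligand-binding chain of the interferon gamma receptor, was at 2.88 and 3.04 on control arrays and 3.74 and 4.03 in GHCre after 3 days, and at 3.01 and 4.02 after 10 days. It was the receptor gene with the largest difference, 0.93 ± 0.41 (unadjusted p = 0.0867), and its arrays did not overlap between genotypes. Ifngr2, the signalling chain of the same receptor, was at 3.64 and 3.84 on control arrays and 4.58 and 4.24 in GHCre, and at 4.07 and 4.06 after 10 days. Its 3 day arrays did not overlap either, with a difference of 0.66 ± 0.42 (unadjusted p = 0.186), while the arrays of 10 days were nearly level.

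For Ifnar1, a chain of the type I receptor, the controls were at 0.41 and 0.71 and the GHCre arrays at 1.09 and 1.20, with 0.50 and 0.76 after 10 days. The genotypes did not overlap after 3 days, and the difference was 0.59 ± 0.41 (unadjusted p = 0.224). Its other probes, dimmer and above background on 5 arrays each, differed by 2.33 and 0.87 in the same direction. Ifnar2, the partner chain, stood at 2.62 and 1.51 on control arrays, 2.49 and 1.76 in GHCre, and 1.92 and 2.05 after 10 days. Here the genotypes overlapped, and the difference was 0.06 ± 0.61 (unadjusted p = 0.924). It was below 0 without replicate 2 of the controls (-0.49) or without replicate 1 of the GHCre group (-0.31).

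The 5 transcription factors were all above their control mean after 3 days, with a median of 0.96. In all 5 every GHCre array was above every control, against 16.7% of all genes. Of the 5, 1 had an unadjusted p under 0.05, where 3.95% of all genes were higher. That gene was Irf8, a factor of myeloid cells and of the interferon gamma response, with its probe at chr8:123280324-123280383 on mm9. It was at -0.82 and 0.43 on control arrays, 1.79 and 1.98 in GHCre after 3 days, and 1.45 and 1.56 after 10 days. Both GHCre arrays lay far above both controls after 3 days, 2.08 ± 0.59 on average or 4.23-fold (unadjusted p = 0.0246), whereas after 10 days control and GHCre were close to each other and nearer the 3 day GHCre level. Irf7, which drives further type I interferon production, was at -0.08 and -0.18 on control arrays and 1.06 and 0.61 in GHCre, then at -0.79 and 0.62 after 10 days. GHCre was the higher genotype on both days, by 0.96 ± 0.43 after 3 days (unadjusted p = 0.0869) and by 1.41 between the single arrays of 10 days.

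Irf1, an early target of interferon gamma, was at 5.82 and 5.43 on control arrays and 6.75 and 6.36 in GHCre, with 5.87 and 6.05 after 10 days. The genotypes did not overlap after 3 days, and the difference was 0.93 ± 0.44 (unadjusted p = 0.101). A second probe of Irf1 differed by 0.06. Stat2, a subunit of the complex that binds the ISRE, was at 2.04 and -2.05 on control arrays, 2.96 and 2.16 in GHCre, and 2.38 and 1.27 after 10 days. The control replicates of Stat2 lay farther apart than the genotypes did, so that its difference of 2.56 ± 1.52 (unadjusted p = 0.167) ran from 0.52 to 4.61 when each array was left out in turn, the lowest without replicate 2 of the controls. Irf9, the DNA-binding subunit of that complex, differed by 0.83 ± 0.51.

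Of the 6 sensors of foreign nucleic acid, 5 were above 0 after 3 days, the median was 0.63, and 0 had an unadjusted p under 0.05. In 1 of the 6 every GHCre array was above every control, no more than the share of 16.7% over all genes. That 1 was Eif2ak2, the kinase PKR that halts translation on double-stranded RNA, at 0.86 and 0.82 on control arrays, 1.71 and 2.00 in GHCre, and 1.02 and 1.75 after 10 days. Both replicates of each genotype were close together, and the difference was 1.02 ± 0.41 (unadjusted p = 0.0663). Dhx58, which encodes the RNA helicase LGP2, ranged from -4.13 and -1.90 on control arrays to -1.16 and -2.51 in GHCre, with -0.74 and -3.06 after 10 days. Its genotypes overlapped (1.18 ± 1.00, unadjusted p = 0.301), and replicate 1 of the controls was not above background.

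Ddx58, which encodes the RNA sensor RIG-I, was at -0.20 and 0.82 on control arrays, 1.26 and 0.60 in GHCre, and 0.03 and -0.44 after 10 days. The genotypes overlapped and the difference was 0.62 ± 0.58 (unadjusted p = 0.348), although a dimmer probe, above background on 5 arrays, differed by 2.53. Ifih1, which encodes the sensor MDA5, was at 0.84 and -0.06 on control arrays, 1.61 and 0.46 in GHCre, and -0.26 and 0.03 after 10 days. It also overlapped (0.64 ± 0.65, unadjusted p = 0.377). The probes of 2 further sensors differed in sign: for Adar, an RNA-editing enzyme, 0.38 and -0.88, and for Zbp1, a sensor of Z-form nucleic acid, -0.16 and, on a dimmer probe above background on 4 arrays, 1.68. When each array was left out in turn the sensor median went as low as 0.09, without replicate 1 of the controls, and it was 0.40 without replicate 1 of the GHCre group.

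The ISG15 and PARP group holds the ubiquitin-like modifier, its protease and ligase, and interferon-induced PARP proteins. Its median was 1.00 after 3 days, with 5 of 6 above 0. In 4 of 6 every GHCre array was above every control, against 16.7% of all genes. At an unadjusted p under 0.05, 2 were higher, against 3.95% of all genes. The group median was 0.57 once replicate 2 of the controls was left out and 0.63 once GHCre replicate 1 was. Usp18, the protease that removes ISG15 and dampens type I receptor signalling (probe at chr6:121220874-121220933 on mm9), was at -2.50 and -1.79 on control arrays, -0.08 and -0.47 in GHCre, and -1.40 and -3.23 after 10 days. GHCre was above control after 3 days, by 1.87 ± 0.49 or 3.66-fold (unadjusted p = 0.0182; 1.11 with normexp), and below it after 10 days, where its level was the lowest of the 6 arrays. Parp14, a mono-ADP-ribosyltransferase (probe at chr16:35832992-35833051 on mm9), was at -1.57 and -1.50 on control arrays, 1.87 and -0.20 in GHCre, and -0.07 and 0.17 after 10 days. The controls agreed closely while the GHCre replicates were far apart, and the difference was 2.37 ± 0.83 or 5.17-fold (unadjusted p = 0.0458), and 1.33 without replicate 1 of the GHCre group.

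Isg15 itself was at 2.86 and 1.73 on control arrays, 4.01 and 3.08 in GHCre, and 2.92 and 3.16 after 10 days. The genotypes did not overlap after 3 days, with 1.25 ± 0.65 (unadjusted p = 0.126), and its second probe differed by 1.23. Parp9, which pairs with the ubiquitin ligase Dtx3l, was at 0.12 and -0.46 on control arrays, 0.86 and 0.30 in GHCre, and 0.89 and 0.45 after 10 days. Its difference was 0.75 ± 0.49 (unadjusted p = 0.196) without overlap, but its dimmer probe was at -0.40. Trim25, the ubiquitin ligase that activates RIG-I, was the 1 member of this group below 0, at -0.44 ± 0.42, with 0.19 on its dimmer probe. The brighter Trim25 probe ends in a run of repeated gt letters, and its specificity was not tested. Dtx3l differed by 0.33 ± 0.52.

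The effectors, proteins that act on the virus or its replication, had the highest median of any role, 1.51 after 3 days (0.97 with normexp background correction). All 13 were above their control mean, 9 had every GHCre array above every control, and 4 had an unadjusted p under 0.05. Over all genes 16.7% had every GHCre array above every control and 3.95% were higher at that p. Ifit1, which binds foreign capped RNA (probe at chr19:34723796-34723855 on mm9), was at -1.78 and -2.87 on control arrays, 1.22 and -0.05 in GHCre, and -1.42 and -1.27 after 10 days. The 3 day GHCre arrays were above all 4 others, 2.91 ± 0.71 or 7.52-fold over control (unadjusted p = 0.0147). Its neighbour Ifit2, a related protein (probe at chr19:34650244-34650303), was at -2.52 and -3.30 on control arrays, 0.86 and -0.89 in GHCre, and -0.56 and -2.74 after 10 days. Ifit2 was 2.89 ± 0.78 or 7.42-fold higher in GHCre after 3 days (unadjusted p = 0.0206), and after 10 days the order was turned, with the control above GHCre. With normexp background correction the 3 day differences were smaller, 1.73 for Ifit1 and 1.65 for Ifit2.

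Ifi44, an interferon-induced protein of the cytoplasm (probe at chr3:151394035-151394094 on mm9), was at -4.28 and -2.94 on control arrays, -0.31 and -1.84 in GHCre, and -2.16 and -3.35 after 10 days. It did not overlap after 3 days (2.54 ± 0.82 or 5.81-fold, unadjusted p = 0.0358), with replicate 1 of the controls not above background, and with normexp the difference was 0.97. Rsad2, which encodes viperin, an enzyme that makes a chain-terminating nucleotide (probe at chr12:27127859-27127918 on mm9), was at 2.20 and 1.90 on control arrays, 4.01 and 3.12 in GHCre, and 2.66 and 2.72 after 10 days. Both GHCre arrays of 3 days were the highest of the 6, 1.51 ± 0.51 or 2.86-fold over control (unadjusted p = 0.0415).

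The other 9 effectors differed by 0.53 to 1.94 with an unadjusted p of 0.0551 or more. They are Ifit3, Ifi35, the membrane-fusion blockers Ifitm1 and Ifitm3, the virion tether Bst2, Xaf1, Rtp4, Samd9l and the nucleotide kinase Cmpk2. In 5 of them (Ifit3, Ifi35, Ifitm1, Xaf1 and Ifitm3) every GHCre array was above every control after 3 days, against 16.7% of all genes. Cmpk2, the lowest of the 9 at 0.53 ± 0.69, had a dimmer probe, above background on all 6 arrays, that differed by 2.67. The second probe of Xaf1, at -0.72, was not above background on any array.

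**Figure D3:**
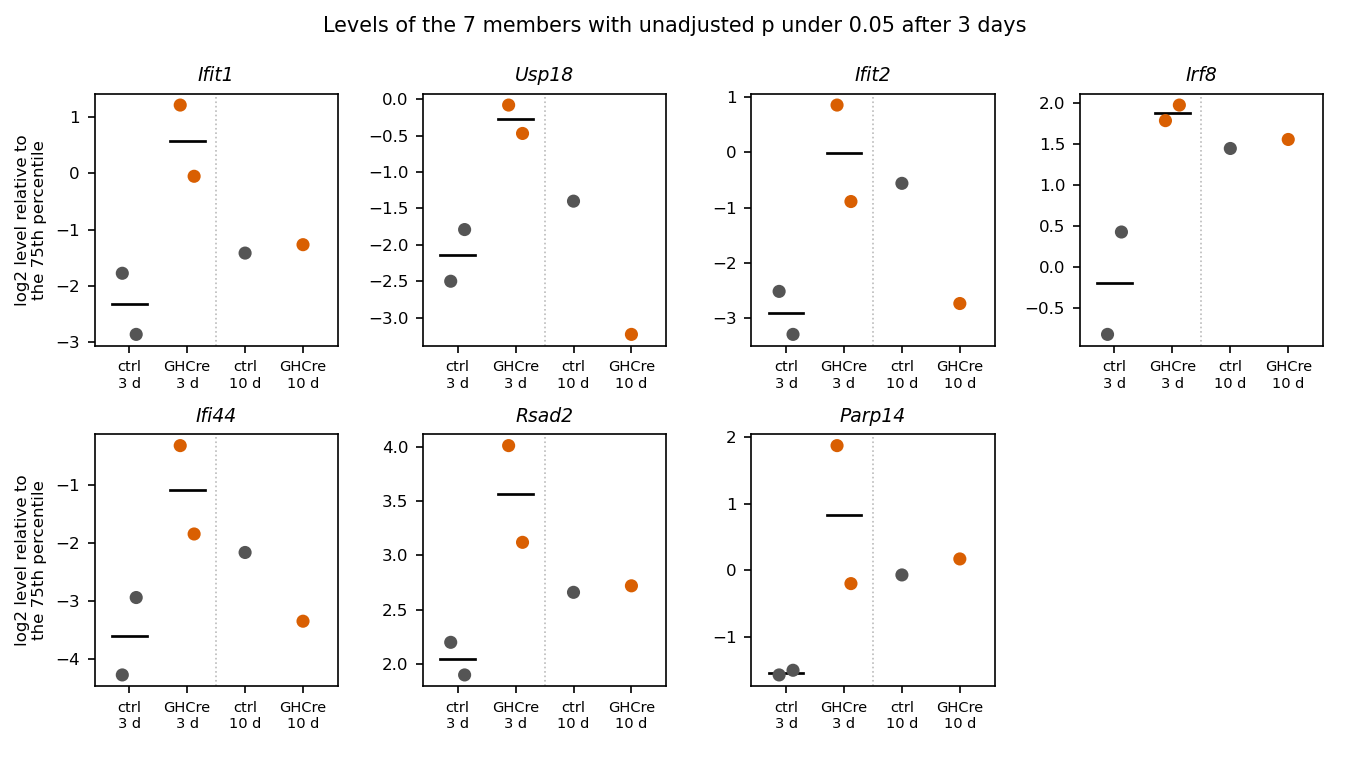
Each panel gives the log2 level (relative to the array's 75th percentile) of 1 of the 7 genes with unadjusted p under 0.05 after 3 days. Points are arrays, grey for control and orange for GHCre, and bars are means of the 2 arrays of 3 days. In every panel both GHCre points of 3 days lie above both controls, and for Usp18, Ifit2 and Ifi44 the GHCre array of 10 days lies below its control.

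The GTPases, guanylate-binding proteins and immunity-related GTPases that are chiefly gamma targets, were mixed. Their median was 0.91 after 3 days, with 5 of 7 above 0 and 0 at an unadjusted p under 0.05. In 1 every GHCre array was above every control, and in 1 every GHCre array was below, neither more than the shares of 16.7% and 21.3% over all genes. Gbp2 was the former, at 2.39 and 0.50 on control arrays, 3.41 and 2.54 in GHCre, and 2.03 and 1.5 after 10 days. Its controls were far apart, and the difference was 1.53 ± 0.83 (unadjusted p = 0.14). Gbp5, a guanylate-binding protein that promotes inflammasome assembly, was the latter, at 1.31 and 0.89 on control arrays, 0.23 and 0.20 in GHCre, and 1.19 and 0.75 after 10 days. It was lower in GHCre by -0.88 ± 0.42 (unadjusted p = 0.103), and its second probe was at -0.56.

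Igtp, an immunity-related GTPase, was at 1.39 and 0.63 on control arrays, 2.58 and 1.36 in GHCre, and 1.11 and 1.35 after 10 days. One control lay just above the lower GHCre array, and the difference was 0.95 ± 0.64 (unadjusted p = 0.21). Gbp3, a guanylate-binding protein, was at 0.17 and 1.71 on control arrays, 2.08 and 1.62 in GHCre, and 0.65 and 0.43 after 10 days, also with overlap (0.91 ± 0.69, unadjusted p = 0.257). Irgm1 and Ifi47 differed by 1.02 ± 1.00 and 0.74 ± 0.63 with overlap, and Iigp1 by -0.10 ± 0.42 with 0.22 on its dimmer probe. The GTPase median was 0.17 without replicate 2 of the controls, 0.35 without replicate 1 of the GHCre group and 1.31 at most with an array left out.

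Set against each other by class, the 20 type I targets had a 3 day median of 1.22 and the 9 gamma targets one of 0.93. All 20 type I targets were above 0, 12 had every GHCre array above every control and 5 had an unadjusted p under 0.05. Of the 9 gamma targets, 7 were above 0, 3 had every GHCre array above every control, 1 every GHCre array below, and 1 an unadjusted p under 0.05. Over all genes 16.7% had every GHCre array above every control, 21.3% had every one below, and 3.95% were higher at that p. The gamma median was 0.38 without replicate 1 of the GHCre group and 0.57 without replicate 2 of the controls. The 8 targets of either had a median of 0.70, with 6 above 0. The gap between the type I and gamma medians was 0.28. A gap taken on each array, a different measure, had an SD of 0.431 between replicate arrays. On single arrays of 3 days, the median centred level of type I targets minus that of gamma targets was -0.75 and 0.12 on control arrays and 0.30 and 0.30 in GHCre. Both GHCre arrays were above both controls, but the controls differed from each other by more than the second control differed from GHCre. After 10 days the gap was 0.04 in the control and -0.16 in GHCre. Within slide 1 and slide 3 the type I median was 1.44 and 1.20 and the gamma median 0.93 and 0.89. No score over the genes was tested.

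**Figure D4:**
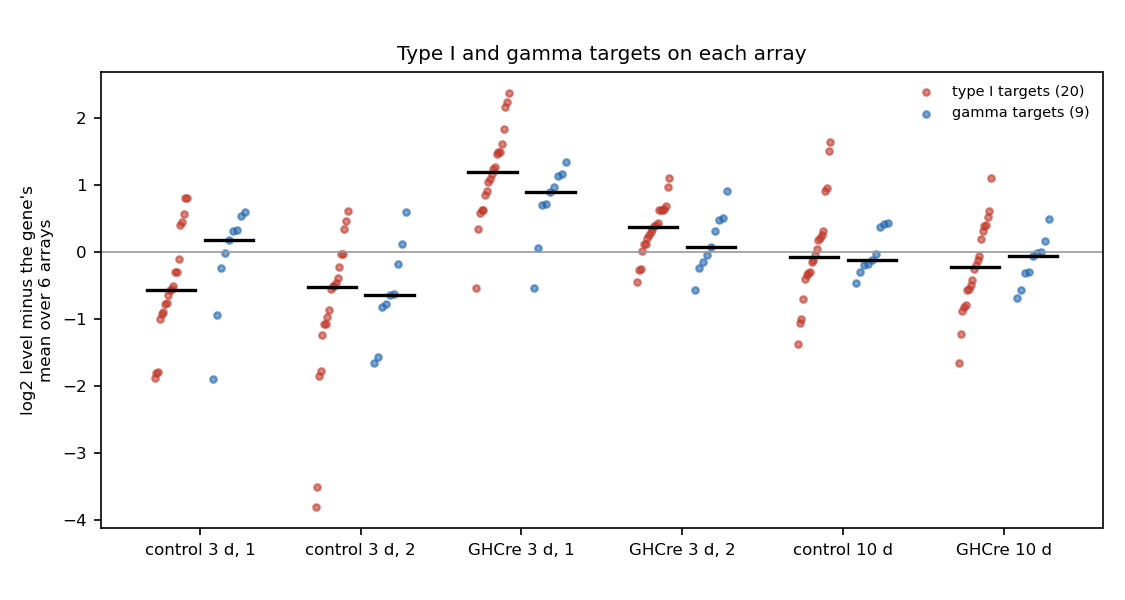
Points are the 20 type I and 9 gamma targets on each array, as log2 level minus the gene's mean over the 6 arrays, and bars are medians. The type I medians were -0.56 and -0.52 in the 3 day controls, 1.21 and 0.37 in GHCre, and -0.07 and -0.22 after 10 days. The gamma medians were 0.19, -0.64, 0.91, 0.08, -0.12 and -0.05 in the same order.

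After 10 days the members' differences lay on both sides of 0. With 1 array of each genotype there is no replicate check, and differences are descriptions. The control array of 10 days is on slide 2 and the GHCre array on slide 3, so genotype and slide cannot be told apart there. The median over the 41 genes was 0.06, with 22 above 0 and 19 below, against -0.001 over all genes, of which 49.9% were above 0. Medians by role ran from -0.22 in the GTPases to 0.19 in the receptors, with 0.03 in the effectors, and the type I and gamma targets were at 0.04 and -0.13. By a log2 difference of 1 or more, 4 members were higher in GHCre, against 12.7% of all genes, and 6 were lower, against 14.0%. The 4 were Xaf1 (2.47), Irf7 (1.41), Ifi35 (1.06) and Ifngr1 (1.02), and the 6 were Dhx58 (-2.32), Ifit2 (-2.18), Usp18 (-1.83), Ifi44 (-1.19), Samd9l (-1.12) and Stat2 (-1.11). Xaf1, Ifi35 and Samd9l are named for these values after they were seen.

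**Figure D5:**
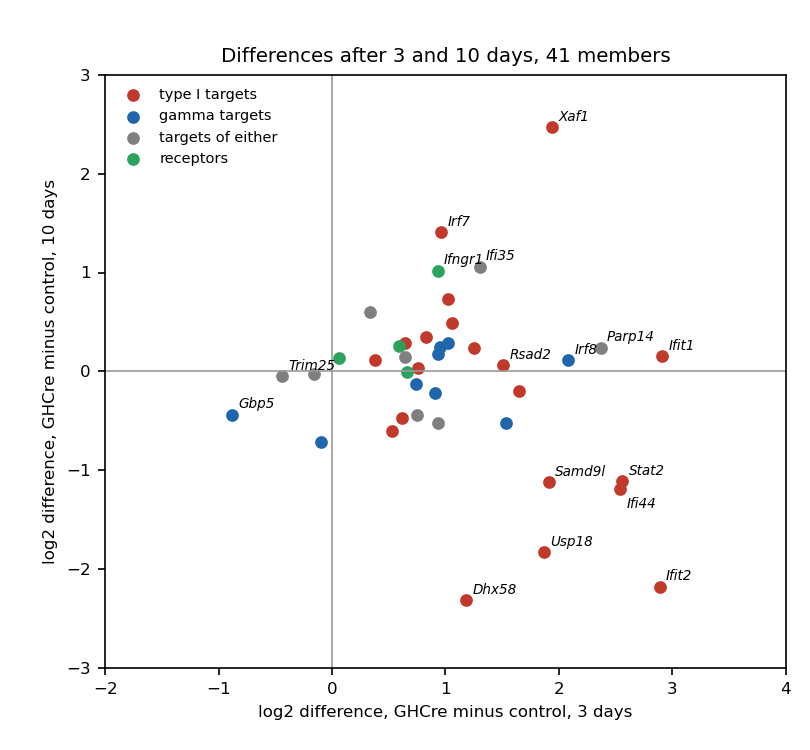
Each point is 1 of the 41 genes, with the log2 difference between genotypes after 3 days on the horizontal axis and after 10 days on the vertical axis, coloured by class. Of the 41 points 37 lie right of 0, while 22 lie above and 19 below the horizontal line.

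The difference between the genotype effects of 10 and 3 days, tested in the same fit, had a median of -0.73 over the members, with 8 above 0 and 33 below, against 0.035 over all genes, of which 51.4% were above 0. Members with an unadjusted p under 0.05 numbered 2, both lower, where 2.49% of all genes were lower and 1.45% higher, and none passed adjustment (0% of all genes). They were Usp18, at -3.70 ± 0.84 (unadjusted p = 0.0117), and Ifit2, at -5.07 ± 1.35 (unadjusted p = 0.0197). Their adjusted p was 1 in limma. These contrasts assume that the lone arrays of 10 days vary like those of 3 days. By class the median was -1.11 for type I targets, with 18 of 20 below 0, and -0.76 for gamma targets, with 8 of 9 below 0. Without replicate 2 of the GHCre group the median was -1.28. The marker lists of cell types are described further on. Their median change of effect was -0.98 for fibroblast and mural markers (0 of 8 above 0) and -0.78 for endothelial (3 of 7). It was -0.72 for pituitary stem cell (3 of 9), -0.64 for T, B and NK cell (3 of 11) and -0.25 for plasmacytoid dendritic cell markers (1 of 5). For red blood cell markers it was -1.43 (0 of 4), for hormone cell -3.72 (1 of 8) and for macrophage and myeloid markers -0.02 (6 of 12). Their part in the result was not tested.

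The comparisons of days within a genotype use the same arrays as those of genotype and are given side by side with them. In GHCre mice the members were lower after 10 than after 3 days by the median, -0.44, with 9 above 0 and 32 below, although 57.3% of all genes were above 0 and the median of all genes was 0.114. It was -0.31 without GHCre replicate 1 and -0.76 without GHCre replicate 2, -0.90 with the replicate number as a block, and -0.19 with the slide as one. Usp18 and Ifit2, with 10 minus 3 day differences of -2.95 (unadjusted p = 0.00765) and -2.72 (unadjusted p = 0.0463), were the 2 members with an unadjusted p under 0.05, both lower, against 1.88% of all genes lower and 2.14% higher. In control mice the members' median was 0.34, with 31 above 0 and 10 below, where 55.1% of all genes were above 0 and the median was 0.093, and the members' median was 0.60 without replicate 1 and 0.16 with the replicate block. The 10 day control array is the only one on its slide, so day and slide cannot be told apart in that comparison. There 0 members had an unadjusted p under 0.05, against 2.84% of all genes higher and 1.20% lower. No gene passed adjustment in either comparison (0%). The 3 day controls, which enter 2 of these comparisons, were thus below the control of 10 days for most members.

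Of the wider pathway, 83 further genes on the array were taken from lists of interferons, receptors and kinases, inhibitors, sensing adaptors and other targets. Of these, 74 passed the filter on probes near background. Over all 83 the 3 day median was 0.59, with 57 above 0 and 26 below, where 48.0% of all genes were above 0. Among the 74 tested, 10 were higher and 1 was lower at an unadjusted p under 0.05, against 3.95% and 2.63% of all genes. Among the ligands, 7 of 12 interferon genes were above background on enough arrays to be tested. Ifnb1, interferon beta, was at -5.90 and -4.88 on control arrays, not above background, at -0.33 and -1.76 in GHCre, and at -4.70 and -4.20 after 10 days. By its background floor Ifnb1 was at least 7.21-fold higher in GHCre after 3 days (unadjusted p = 0.00401), and the control of 10 days was again not above background. Ifna5, a type I interferon, was above background on 1 GHCre array of 3 days and on the GHCre array of 10 days. Ifng, interferon gamma, which the naming rule did not select, was at 1.26 and -1.40 on control arrays and -0.15 and 0.12 in GHCre, with overlap. Ifna2, Ifna4 and Ifnk were not above background on any array.

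Among 6 further receptor and kinase genes, 4 were above 0 and 2 were higher at an unadjusted p under 0.05, against 3.95% of all genes. Ifnlr1, a chain of the interferon lambda receptor, was at -5.67 and -4.25 on control arrays, not above background, at -0.23 and 0.17 in GHCre, and at -2.89 and -2.26 after 10 days. It was at least 14.6-fold higher in GHCre after 3 days (unadjusted p = 0.00161). The bounds for Ifnb1 and Ifnlr1 hold for this scaling: with the background corrected by normexp the log2 differences were as low as 1.31 and 1.97. Tyk2, a kinase of the type I receptor, was at -5.89 and -6.42 on control arrays and -3.39 and -4.15 in GHCre. It was above background in 1 of these 4 arrays, so no lower bound is given for its fold. The log2 difference of Tyk2 was 0.15 to 2.76 over the alternatives in processing.

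Of 7 inhibitors, 6 were above 0 with a median of 0.53 and 0 had an unadjusted p under 0.05. The phosphatase Ptpn2 (0.86 ± 0.54) and Socs3 (0.53 ± 0.41), which blocks cytokine receptors, had the lowest p. The 15 sensing adaptors had a median of -0.08, with 7 above and 8 below 0. Sting1, the adaptor of cytosolic DNA sensing, was at 2.50 and 2.19 on control arrays and 4.86 and 3.65 in GHCre (1.91 ± 0.59, unadjusted p = 0.0313). Tlr4, the receptor of bacterial lipopolysaccharide, went the other way, at 1.72 and 0.02 on control arrays and -1.50 and -1.89 in GHCre (-2.56 ± 0.73, unadjusted p = 0.0243). For neither did the genotypes overlap after 3 days. They were the 2 of 13 tested adaptors with an unadjusted p under 0.05, where 3.95% of all genes were higher and 2.63% lower.

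The 25 other type I targets had a median of 1.15, with 21 above 0 and 3 of 24 tested higher at an unadjusted p under 0.05. The 18 other gamma targets had one of 0.68, with 13 above 0 and 3 of 17 tested higher at that p. Over all genes the share was 3.95%. Herc6, the mouse ligase for ISG15, was at -1.42 and -0.92 on control arrays and 0.41 and 0.18 in GHCre (1.47 ± 0.44, unadjusted p = 0.0284). Trim30a, a TRIM-family protein, was at -3.07 and -5.09 on control arrays and -1.11 and -1.90 in GHCre, with 1 control not above background (2.58 ± 0.86, unadjusted p = 0.04). The genotypes of neither overlapped. Cd274, which encodes the checkpoint ligand PD-L1, was at -1.72 and -1.81 on control arrays and 0.58 and -0.09 in GHCre (2.01 ± 0.46, unadjusted p = 0.0117). Cxcl10, a chemokine that attracts T cells, was at 2.17 and 0.96 on control arrays and 4.39 and 3.16 in GHCre (2.20 ± 0.72, unadjusted p = 0.038). After 10 days the medians of these lists were -0.33, with 7 of 25 above 0, and -0.18, with 7 of 18 above 0.

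Markers of the cell types the sorted fraction could hold are given beside these differences. The stem cell markers Sox9 and S100b were above background on all 6 arrays, while Sox2 was not above background on any. Macrophage and myeloid markers had a 3 day median of -0.14, with 5 of 12 above 0 and Aif1 and C1qa never above background. Their summed signal, in units of the array's 75th percentile and with replicate 1 first, was 237 and 199 on control arrays and 167 and 171 in GHCre. Most of this sum came from the Itgam probe, so it says little about the other markers. Every GHCre array was above every control for 2 of the 12, Tyrobp and Fcer1g, and below for 3, Csf1r, Itgam and Cx3cr1. Plasmacytoid dendritic cell markers, of a cell type known for type I interferon, had a median of -0.12, with 2 of 5 above 0 and Spib never above background. Their sums were 19.1 and 14.5 on control arrays and 14.6 and 13 in GHCre. T, B and NK cell markers had a median of 0.88, with 7 of 11 above 0 and Ms4a1 never above background. Their sums were 17.3 and 22.4 on control arrays against 37.4 and 33.6 in GHCre, mostly from Nkg7 and Cd3e. Every GHCre array was above every control for 4 of the 11 and below for 2, Cd8a and Cd4. At an unadjusted p under 0.05, 0 were higher and 1, Cd8a, was lower. Fibroblast and mural markers were above 0 in 8 of 8, with a median of 0.72 and sums of 202 and 134 on control arrays against 260 and 214 in GHCre. Every GHCre array was above every control for 6 of the 8, and 1, Des, was higher at an unadjusted p under 0.05 (2.05 ± 0.49). Endothelial markers had a median of 0.44 (5 of 7 above 0, sums of 4.73 and 4.46 against 6.92 and 5.83). Every GHCre array was above every control for 3 of the 7 and below for 1, and 1, Esam, was higher at that p (2.85 ± 0.59). Red blood cell markers had a median of 0.78 (4 of 4 above 0, sums of 1.93 and 1.14 against 7.45 and 1.14). Of the 4, 1, Hbb-bt, had every GHCre array above every control and was higher at that p. Over all genes the shares were 16.7% with every GHCre array above, 21.3% with every one below, and 3.95% higher at that p. The part of the lymphocyte, fibroblast, endothelial and red blood cell markers in the interferon differences was not tested. Hormone cell markers had a median of -0.41, with 3 of 8 above 0 and Fshb never above background. After 10 days the marker medians were -3.78 for hormone cells (1 of 8 above 0), -0.90 for red blood cells (0 of 4), -0.84 for stem cells (2 of 9), -0.60 for plasmacytoid dendritic cells (1 of 5), -0.41 for fibroblast and mural cells (2 of 8), -0.12 for T, B and NK cells (4 of 11), -0.07 for macrophages and myeloid cells (6 of 12) and -0.03 for endothelium (3 of 7).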

How the data were processed

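RNA of the sorted side population was amplified and labelled with Cy3, per the labels' protocols, and hybridised to 6 arrays on 3 slides. Agilent Feature Extraction 10.7.3.1 made the 1 colour data, per the file headers. Its processed signal, as deposited by the authors, is an intensity with background subtracted and arrays not scaled to each other. Log2 values in the deposited series table matched that signal after quantile normalization and served as an alternative. The 43020 spots that are not controls were averaged by probe as log2 signal, and each array was scaled by its 75th percentile. Probe positions are mm9, as in the files.

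With limma 3.58.1 (R 4.3.3), 4 group means were fitted over the 6 arrays for the 20923 genes above background on 2 or more of them, with Benjamini-Hochberg adjustment at 0.05. This fit draws its 2 residual degrees of freedom from the 3 day arrays alone and has a prior of 2.03 with a standard deviation of 0.555. Its estimates of differences were checked on data simulated with the same spread for every gene, which does not check the p-values given here. A probe not above background in any array of a group was set to no less than the lowest signal above background there, for folds written as at least.

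The members, roles, classes and lists were chosen with earlier results of these data known, so counts over them are no independent support. Single values of some listed genes are not reported here. Levels on all arrays are printed for up to 4 members of lowest 3 day p in each role, any member with an unadjusted p under 0.05 and the receptors, and for up to 2 other genes of lowest p in most pathway groups. Promoters were searched with pandas in Python 3.11.15 and figures drawn with matplotlib 3.10.9. Alternatives were other normalizations, background corrections, filters, probe summaries, a variance trend, blocks and left-out arrays. The numbers of the replicates (2 pairs, correlation of deviations 0.087) were not taken to pair the samples.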

Additional observations from a re-analysis of the deposited data

Results flagged for a closer look

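In the GTPases, each GHCre array of 3 days was above the control mean by its median difference (1.15 and 0.35), whereas the GHCre array of 10 days was below its control, with a median of -0.22. The same held for the gamma targets, which include these GTPases, with 1.15 and 0.38 after 3 days and -0.13 after 10 days. For both lists this turn rests on 1 array of each genotype after 10 days, and the difference between days was not tested.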

How the results depend on the processing

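The alternatives were quantile normalization, normexp correction with either scaling, the series table, 2 filters, the mean of all probes, a variance trend, a replicate block, a slide block and each 3 day array left out. The member median was 0.68 to 1.18 after 3 days in all 14 and 0.03 to 0.11 after 10 days in the 13 that could be fitted (the slide block could not, since no other array shares the slide of the 10 day control), and no gene passed adjustment in any comparison. The count of 7 members higher after 3 days at an unadjusted p under 0.05 was 13 with either normexp setting or the variance trend, and 0 to 5 with an array left out. The median change of effect was -1.28 to -0.54 with an array left out, and its count of lower members 2 to 4. For 10 minus 3 days in GHCre, with the replicate block, which pairs the numbers, the median was -0.90 and 6 members were lower at that p, against a median of -0.19 with the slide block and -0.76 to -0.31 with an array left out. The GHCre count of 2 was 1 with either normexp setting or the slide block, and 1 to 2 with an array left out. The median of 10 minus 3 days in controls was 0.24 to 0.60 with an array left out, 0.16 with the replicate block and 0.58 with the mean of all probes. Replicate and slide blocks gave the same 3 day fit and moved no other count by over 1.5 times. Ifnar2 was -0.49 to 0.62 with an array left out, and turned negative without control replicate 2 (-0.49) and without GHCre replicate 1 (-0.31). The median gap of type I over gamma targets was 0.03 to 0.63 after 3 days. Where no value shows it, the cause was not tested. Probes near background limit Dhx58, Ifi44, Xaf1, Samd9l, Ifnb1 and Ifnlr1 most.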
